A study of Mus musculus with 6 samples.

Results

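Transcripts of 8 proteins that hepatocytes secrete into the blood, and of the hepatocyte transcription factor HNF4A, were examined in the RNA-seq table of liver cells from WT and Alb-Cre;UBR7fl/fl mice. The 9 transcripts were chosen by gene, as established markers of the hepatocyte, and each was found by its Ensembl identifier among the 208848 transcripts of the table. All 9 were found. They are ALB (ENST00000295897.8_2), AFP (ENST00000395792.6_2), TTR (ENST00000237014.7_1), APOA1 (ENST00000236850.4_1), APOA2 (ENST00000367990.7_2), APOB (ENST00000233242.5_1), TF (ENST00000402696.8_2), FGB (ENST00000302068.8_1) and HNF4A (ENST00000316099.8_2). The identifiers are human, as are all 208848 in the table, whereas the samples are labelled Mus musculus. One transcript stands for each gene here, and the table gives no coordinates or gene names.

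The experiment comprised 3 WT samples and 3 Alb-Cre;UBR7fl/fl samples, in which both Ubr7 alleles are flanked by loxP sites and Cre recombinase is expressed from the albumin promoter. The deletion of Ubr7, a UBR-box ubiquitin ligase, is therefore limited to cells in which that promoter is or was active. According to the methods of the study the mice were male C57BL/6 animals of 8 weeks, and the liver cells were obtained by digestion of the tissue. The sample labels describe conditionally immortalized liver cells that were cultured with serum. The authors deposited 1 column of FPKM (fragments per kilobase of transcript and 1000000 mapped fragments) for each genotype and named it a mean value. No spread between mice can be given for any value below, and no test of the genotype was possible. The level of Ubr7 was not analysed here, so that the genotype of the columns was not checked against the deleted gene.

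The hepatocyte is the main cell of the liver and the source of most plasma proteins. Albumin, transferrin, transthyretin, fibrinogen and the apolipoproteins of high and low density lipoproteins are among the most abundant messenger RNAs of liver tissue. Alpha-fetoprotein, the fetal counterpart of albumin, is low in adult liver and returns in many hepatocellular carcinomas. HNF4A is a nuclear receptor that maintains the hepatocyte programme and acts on the genes of several apolipoproteins.

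RefSeq promoters of GRCm38.p6 were matched for 7 of the 9 genes, with 9 starts in all, and Trf (the mouse gene of transferrin) and Ttr were not matched. The mouse promoter of Alb is shown because the albumin promoter also drives Cre in the Alb-Cre;UBR7fl/fl animals. Both promoters of Hnf4a are shown because HNF4A was the transcript with the clearest difference between the genotypes. Each sequence holds the 250 bases before a start, 5′ to 3′ in the direction of the gene.
Alb: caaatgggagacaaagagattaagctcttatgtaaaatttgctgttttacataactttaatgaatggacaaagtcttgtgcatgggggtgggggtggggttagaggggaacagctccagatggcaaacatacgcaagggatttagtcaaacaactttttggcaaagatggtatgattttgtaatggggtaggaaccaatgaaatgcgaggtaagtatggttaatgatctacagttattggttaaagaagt
Hnf4a, upstream start: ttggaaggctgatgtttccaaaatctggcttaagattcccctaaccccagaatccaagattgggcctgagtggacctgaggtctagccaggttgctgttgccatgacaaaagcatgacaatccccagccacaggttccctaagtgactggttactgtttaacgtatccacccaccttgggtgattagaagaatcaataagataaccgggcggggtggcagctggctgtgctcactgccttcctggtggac
Hnf4a, downstream start: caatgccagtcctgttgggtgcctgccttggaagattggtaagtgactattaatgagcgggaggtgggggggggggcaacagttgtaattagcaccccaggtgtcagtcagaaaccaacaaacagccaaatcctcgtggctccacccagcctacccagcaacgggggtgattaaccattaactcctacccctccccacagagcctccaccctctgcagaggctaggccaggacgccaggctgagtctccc
The Alb sequence is chr5:90460620-90460869 on the plus strand. The sequence before the upstream start of Hnf4a is chr2:163506607-163506856, and that before its downstream start is chr2:163546905-163547154, both on the plus strand. No capitals are used, as no part of these sequences was singled out, and binding at these promoters was not measured.

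The secreted protein markers of hepatocytes were low or at 0 in both genotypes. All 8 secreted protein transcripts were under 1 FPKM in each column, and 4 of them were listed at 0 in both. Of these 4, AFP is low in adult liver as well, so that its 0 does not speak on the cell type. Summed, they reached 0.169 FPKM in WT and 0.757 in Alb-Cre;UBR7fl/fl. The median transcript of the WT column had 1.84 FPKM and that of the other column 1.36, so that the 8 transcripts together stayed below the level of 1 median transcript in each. Only HNF4A reached 1 FPKM, with 1.39 FPKM in Alb-Cre;UBR7fl/fl. These levels go against calling the samples hepatocytes, and they are called the profiled cells here. How reads of a mouse transcript would be counted on its human counterpart was not tested, and in such bulk samples fewer hepatocytes and less RNA per hepatocyte cannot be told apart.

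**Figure D1:**
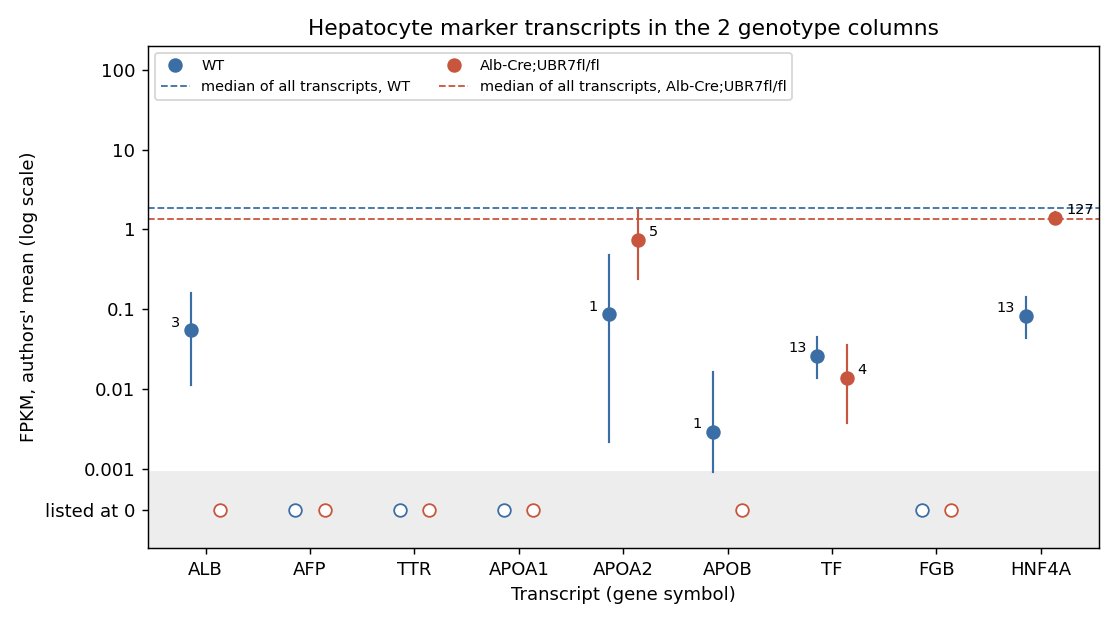
Level of each of the 9 transcripts in FPKM (vertical log axis) in the WT column (blue) and the Alb-Cre;UBR7fl/fl column (red), with open circles in the grey band for transcripts listed at 0. Numbers beside the points are recovered reads, vertical bars are exact 95% Poisson intervals of those reads (counting error only, cut off at the grey band), and dashed lines are the medians of all transcripts, 1.84 and 1.36 FPKM. HNF4A in Alb-Cre;UBR7fl/fl is the only point at a dashed line, and AFP, TTR, APOA1 and FGB are open circles in both columns.

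Low FPKM values can be traced back to reads, since the value of 1 read depends only on transcript length and on the read total of the column. Among 23202 low transcripts, those between 0 and 1 FPKM in each column, 53.8% had a ratio of the 2 values that corresponded to whole reads up to 6, within a tolerance of 2e-06. The WT total, 24495956, was fitted so that many of the lowest WT values were 1 read over a whole number of bases. The Alb-Cre;UBR7fl/fl total, 14197506, was then obtained from the WT total and the ratio of the 2 totals found from the low transcripts. With the WT total, 90.0% of the lowest WT values met this condition, which is what the fit sought and no separate check. For some higher values no reads were recovered. The recovery took 1 read total for each column, and how the 3 samples of a genotype were combined into a column was not tested. At these totals 3 reads on 1 kb of transcript correspond to 0.122 and 0.211 FPKM, respectively. The reads given below are the smallest whole numbers that reach the deposited values. Their 95% intervals are exact Poisson intervals that treat each column as 1 set of reads and cover counting error only.

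ALB encodes albumin, the main protein of plasma. Its transcript had 0.0541 FPKM in WT, from 3 reads (95% interval 0.619 to 8.77 reads), and was listed at 0 in Alb-Cre;UBR7fl/fl. At the recovered length of 2263 bases, 3 reads would have given 0.0934 FPKM in Alb-Cre;UBR7fl/fl. With 0 in Alb-Cre;UBR7fl/fl no fold was computed between the genotypes, and the WT level did not exceed what 3 reads give. In WT 146751 transcripts (70.3% of the table) were higher than ALB. It lay 34.1-fold below the median of all transcripts.

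AFP was listed at 0 in both columns. TTR, the carrier of thyroid hormone and of retinol-binding protein, was also listed at 0 in both. FGB, the beta chain of fibrinogen in blood clotting, was listed at 0 in both as well. With no value above 0 their lengths could not be recovered, and the limit is that of 3 reads per kb given above. A transcript at 0 ranks below 155316 transcripts (74.4%) in WT and below 142932 (68.4%) in the other column.

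Among the apolipoproteins, APOA1, the main protein of high density lipoprotein, was listed at 0 in both columns. APOB, the structural protein of very low and low density lipoproteins, had 0.00289 FPKM in WT from 1 read (95% interval 0.0253 to 5.57 reads) and was listed at 0 in Alb-Cre;UBR7fl/fl. Its recovered length was 14121 bases, so that 3 reads would have given only 0.0150 FPKM there, a lower limit than that of ALB. APOA2, also a protein of high density lipoprotein, had 0.0861 FPKM in WT from 1 read and 0.743 FPKM in Alb-Cre;UBR7fl/fl from 5 reads. It was the highest secreted protein transcript in each column. The FPKM ratio of APOA2 was 8.63 (95% interval 0.965 to 408), so that its counting error alone included a ratio of 1.

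TF encodes transferrin, which carries iron in plasma. Its transcript had 0.0258 FPKM in WT from 13 reads (95% interval 6.92 to 22.2 reads) and 0.0137 FPKM in Alb-Cre;UBR7fl/fl from 4 reads (1.09 to 10.2 reads). It was the only secreted protein transcript besides APOA2 above 0 in both columns. The ratio of Alb-Cre;UBR7fl/fl to WT was 0.531 (95% interval 0.126 to 1.72), and a difference between the genotypes was not detectable with these few reads. The 13 WT reads of TF lay on a recovered length of 20602 bases, compared with 474 bases for APOA2. In WT 72.5% of all transcripts were higher than TF, and 68.3% were in the other column.

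Summed over the 8 secreted proteins, 18 reads were recovered in WT (95% interval 10.7 to 28.4) and 9 in Alb-Cre;UBR7fl/fl (4.12 to 17.1). Per 1000000 reads of the column this was 0.735 in WT and 0.634 in Alb-Cre;UBR7fl/fl. The summed FPKM was thus higher in Alb-Cre;UBR7fl/fl and the reads relative to the total were not. Of the 9 reads, 5 were on the short APOA2 transcript, where 1 read weighs most in FPKM. The order by FPKM among all 9 transcripts was APOA2, HNF4A, ALB, TF and APOB in WT, and HNF4A, APOA2 and TF in Alb-Cre;UBR7fl/fl, followed by those at 0. In WT the intervals of all neighbours in this order overlapped, and the order is not resolved. In Alb-Cre;UBR7fl/fl the intervals of HNF4A and APOA2 overlapped, and that of TF lay below both.

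The low levels were then set against the table as a whole. Listed at 0 in both columns were 4 of the 9 transcripts, compared with 24% of all 208848. Under 1 FPKM in both columns were 8 of the 9, compared with 44% of all. The highest transcripts of the WT and Alb-Cre;UBR7fl/fl columns had 14187 and 19317 FPKM, and at least 1000 FPKM was reached by 418 and 486 transcripts. None of the 9 was among these, or above the median of all transcripts in WT. In Alb-Cre;UBR7fl/fl HNF4A lay at the median.

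**Figure D2:**
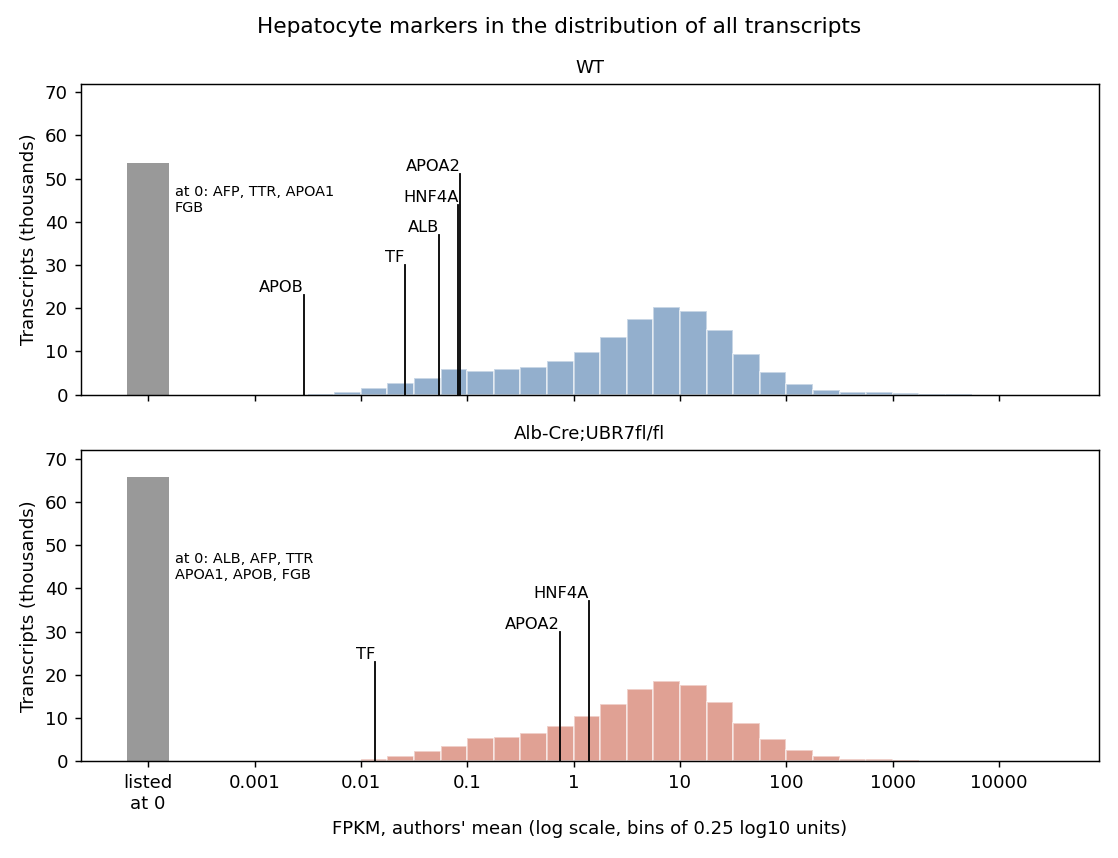
Number of transcripts (vertical axis, in units of 1000) by FPKM (log axis, bins of 0.25 log10 units) in WT (upper panel) and Alb-Cre;UBR7fl/fl (lower panel), with the grey bars for the 53532 and 65916 transcripts listed at 0. Black lines mark those of the 9 transcripts above 0 and the others are named beside the grey bars. All marked transcripts lie left of the main peak of the distribution, with HNF4A in Alb-Cre;UBR7fl/fl closest to it.

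HNF4A was the transcript with the clearest difference between the columns. It had 0.0823 FPKM in WT from 13 reads (95% interval 6.92 to 22.2 reads) and 1.39 FPKM in Alb-Cre;UBR7fl/fl from 127 reads (106 to 151 reads). The FPKM ratio was 16.9 (95% interval 9.51 to 32.5 for counting error). This interval holds for the reads of these columns only and says nothing of the variation between mice.

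On the scale of log2(FPKM + 1), which understates the change of low transcripts, HNF4A was higher in Alb-Cre;UBR7fl/fl by 1.14. A transcript entered the comparison of all transcripts on this scale if it reached 1 FPKM in either column, as 116955 did. HNF4A was the only 1 of the 9 that entered, and it did so only through the column in which it was higher, so that the shares below are given as background and nothing about HNF4A is read from them. No member passed a limit of 2 in either direction. The 8 secreted proteins, under 1 FPKM in both columns, could not have passed a limit of 2 or of 1 on this scale. Of all transcripts compared, 0.964% passed it, 0.077% as higher and 0.887% as lower in Alb-Cre;UBR7fl/fl. HNF4A was past a limit of 1, which 0.866% of transcripts passed in the higher direction and 5.67% in either. With a pseudocount of 0.1 in place of 1 the difference of HNF4A was 3.03, past the limit of 2, which 0.367% of transcripts then passed in the higher direction. The median difference of all transcripts compared was -0.09. Leaving out a sample was not possible, and whether 1 mouse or 1 library carries the HNF4A difference cannot be told apart from the genotype.

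**Figure D3:**
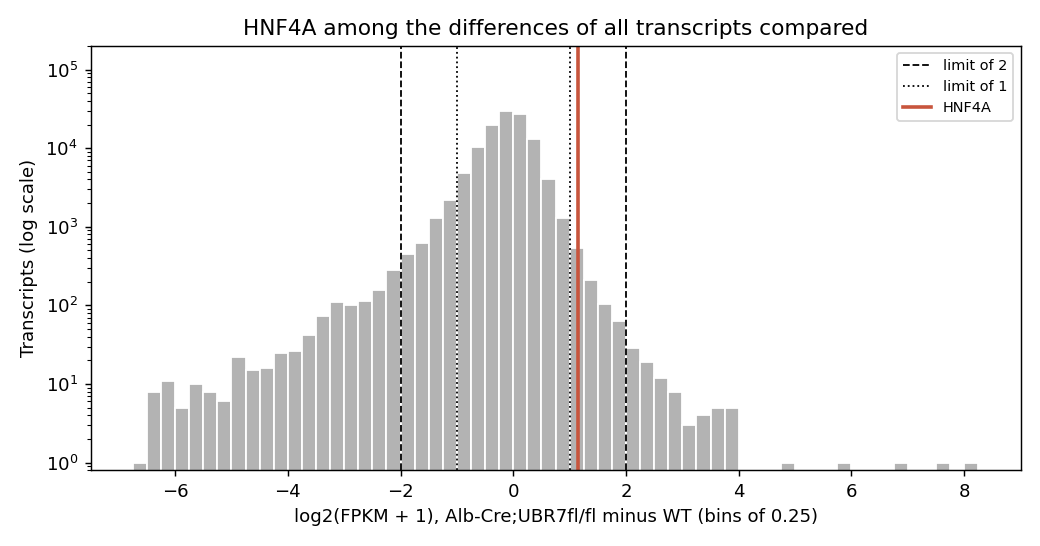
Number of transcripts (vertical log axis) by difference in log2(FPKM + 1), Alb-Cre;UBR7fl/fl minus WT, in bins of 0.25, for the 116955 transcripts compared. Dashed and dotted lines mark the limits of 2 and 1, and the red line marks HNF4A at 1.14, between the limits, with 646 transcripts to its right.

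The level of HNF4A was low even where it was higher. In Alb-Cre;UBR7fl/fl 104117 transcripts (49.9%) were higher than HNF4A. Of the 71363 transcripts whose value in that column was not given by fewer than 50 reads, 98.4% were higher. In WT 142257 transcripts (68.1%) were higher. HNF4A exceeded the summed level of the 8 secreted proteins 1.83-fold in Alb-Cre;UBR7fl/fl, and in WT it was 0.488 times that sum. In the column in which HNF4A was higher, APOA2 was at 0.743 FPKM, TF at 0.0137 FPKM, and the other 6 secreted proteins were listed at 0, of which AFP, TTR, APOA1 and FGB were also at 0 in WT.

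The rows beside each transcript in the table were read as a check of single values, with windows chosen after the values had been seen. Whether an adjacent row belongs to the same gene was not tested. Beside HNF4A, the 4 rows of an unbroken stretch above 0, HNF4A included, were all higher in Alb-Cre;UBR7fl/fl, at 0.747 to 1.65 FPKM compared with 0.0823 to 0.177 FPKM in WT. Of the 20 rows within 10 of HNF4A, 11 were higher in Alb-Cre;UBR7fl/fl, 0 were lower and 9 were listed at 0 in both columns. Some of the 11 rested on 1 recovered read. Windows with rows mostly or all in 1 direction were not particular to HNF4A. The higher and lower rows were 0 and 18 beside ALB, 0 and 4 beside AFP, 6 and 0 beside APOB, and 8 and 1 beside APOA1. They were 13 and 7 beside APOA2, 4 and 6 beside TTR, 6 and 11 beside TF, and 5 and 7 beside FGB. The HNF4A difference was not limited to its single row, although reads counted on several rows would not be independent.

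Beside APOA2, 4 of the 10 nearest rows carried the same recovered reads, 1 in WT and 5 in Alb-Cre;UBR7fl/fl. Whether these are the same reads counted on each row was not tested. Beside ALB, all 10 rows that followed were above 0 in WT, each with 1 or 2 recovered reads, and all 10 were listed at 0 in Alb-Cre;UBR7fl/fl. The stretch of 14 such rows around ALB ran from 0.0275 to 0.142 FPKM in WT. Whether these rows share the same few reads was not tested either, and the Alb-Cre;UBR7fl/fl column had the lower read total. Beside FGB, 9 of the 10 rows before it had 19.8 to 51.2 FPKM in WT and 17.3 to 50.6 FPKM in the other column, and the row directly before FGB was listed at 0 like FGB itself. Beside TTR and APOA1, also at 0, nearby rows reached 33.5 and 11.2 FPKM in WT. Around AFP the 20 nearest rows reached at most 0.0589 FPKM in WT and were all listed at 0 in Alb-Cre;UBR7fl/fl.

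**Figure D4:**
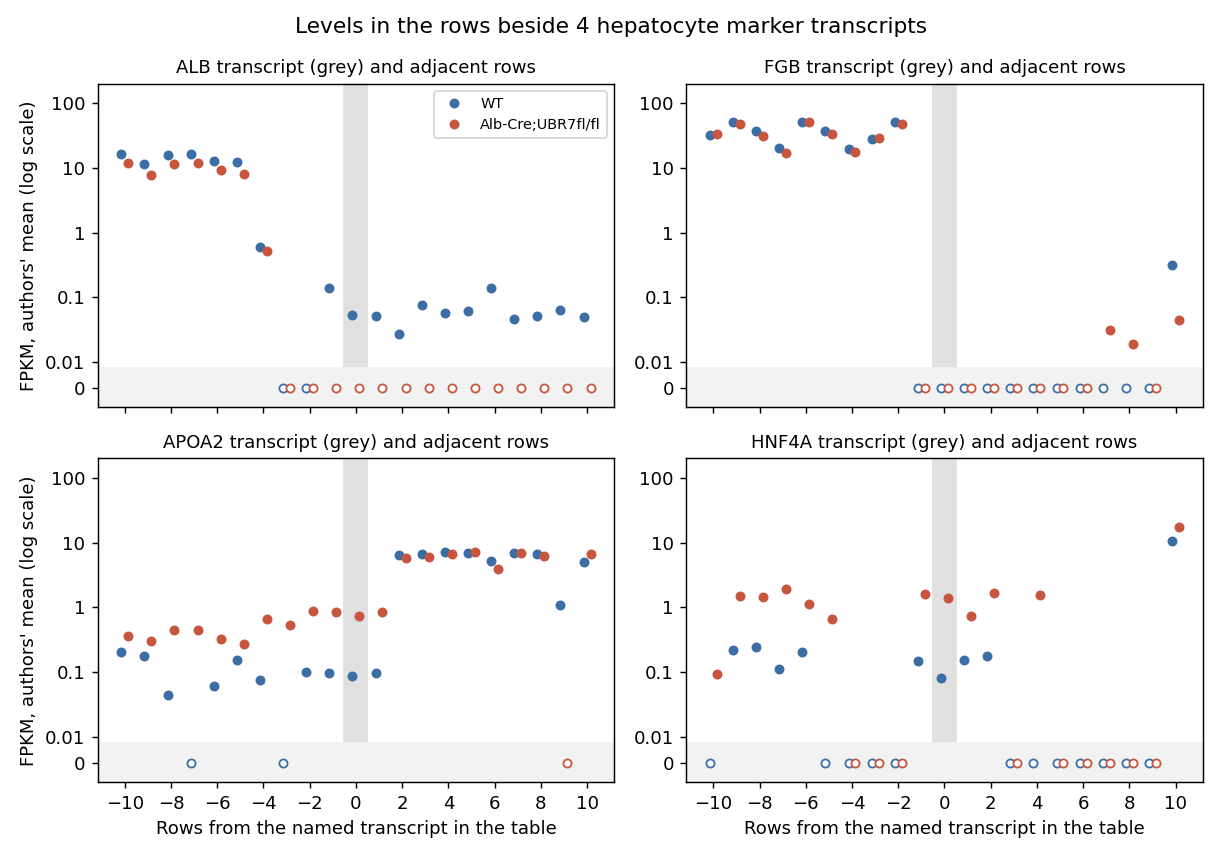
FPKM (vertical log axis, with a grey band for 0) in the 10 rows before and after the ALB, FGB, APOA2 and HNF4A transcripts, in WT (blue) and Alb-Cre;UBR7fl/fl (red), with the named transcript at row 0. The rows after ALB hold only blue points above 0, FGB lies shortly after 9 rows of 17.3 to 51.2 FPKM, and the points near HNF4A are red above blue.

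The recovered lengths were also compared with the mouse genes. For the 5 genes with a recovered length, none of the 19 protein-coding mouse transcripts in GENCODE M21 had that length. The mouse Alb transcript has 2034 bases against 2263 recovered for ALB, and the longest mouse Apob transcript 13934 bases against 14121 for APOB. For HNF4A the recovered length was 6445 bases and the longest mouse transcript 4362 bases. The gap was widest for TF, with 20602 bases recovered and 2571 in the longest mouse Trf transcript, and narrowest for APOA2, with 474 bases recovered and 470 in the nearest mouse transcript. Recovered lengths are the smallest that reach the values, and they were not compared with human transcripts here. As all identifiers are human, lengths unlike those of mouse transcripts say nothing about the species of the reads.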

How the data were processed

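RNA from 3 WT and 3 Alb-Cre;UBR7fl/fl samples was sequenced. The authors deposited FPKM in 1 column per genotype, which the header names a mean value, so no SD or n is given. The methods of the study name Bowtie2, the human genome GRCh38 and DESeq2, and the processing notes of the submitters name CASAVA 1.8 and TopHat2 2.0.6. The counting tool and annotation release are not given in the sources used here. Samples were grouped by their titles.

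Transcripts were matched by identifier before the dot. The members and lists were chosen with earlier results of these data known, and gene names come from that list. Every member is named, whatever its value. Levels were ranked among 208848 transcripts. Differences were taken on log2(FPKM + 1) for transcripts that reached 1 FPKM in either column, with a limit of 2 and no test. The limma fit foreseen for columns per sample could not be made. Read totals were fitted to the low values, and reads and lengths were recovered as the smallest whole numbers that give the values. The procedure was tested on simulated data in which each column was 1 library with 1 read total. Columns that are means over 3 samples were not simulated, so that test does not cover them. Intervals are exact Poisson intervals, and for ratios exact binomial (Clopper-Pearson) intervals, at 95%. No human annotation was used, so further hepatocyte genes and markers of other cells are not reported. Alternatives were another pseudocount, filter, limit, normalization and background. Scripts ran in Python 3.11.15 with scipy 1.17.1, numpy 2.4.6 and pandas 2.3.3, and plots were drawn with matplotlib 3.10.9.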

Additional observations from a re-analysis of the deposited data

How the results depend on the processing

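No paired analysis was possible because each genotype has a single column of means, and leaving out each replicate was not run for the same reason. None of the 9 transcripts passed the limit of 2 on log2(FPKM + 1). The 8 secreted proteins, under 1 FPKM in both columns, could not have passed it or a limit of 1, with or without the filter. Of the 9 transcripts, 1 passed with a pseudocount of 0.1, and 1 with a limit of 1, in both cases HNF4A. With a pseudocount of 0.1 APOA2 differed by 2.18, from 1 and 5 recovered reads, but it did not enter the comparison. The count was also 0 without a filter, with quantile normalization and with median centring. With a minimum of 1 FPKM in each column and on the TPM scale no member entered the comparison, so that the count there says nothing. The difference of HNF4A, taken whether or not it entered, was positive in each setting, from 0.42 on the TPM scale to 3.03 with a pseudocount of 0.1. On the TPM scale, where each column sums to 1000000, the summed level of the 8 secreted proteins was 0.0455 in WT and 0.199 in Alb-Cre;UBR7fl/fl. Without the highest secreted protein transcript their median in WT was 0 in place of 0.00145. Against transcripts that reached 1 FPKM in either column, the background median was 8.82 FPKM in WT and 7.83 in Alb-Cre;UBR7fl/fl. The number of the 9 above the median in Alb-Cre;UBR7fl/fl was 1 among all transcripts and 0 among those of at least 1 FPKM. It was also 0 among those whose value was not given by fewer than 50 reads. Median centring adds the same amount to every transcript, those at 0 in both columns included. Counting error is large for every secreted protein here, since none exceeded 13 recovered reads.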
